A study of Mus musculus with 7 samples.

Results

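The genes described here are 9 parts of the Wnt signalling pathway of the mouse intestine: the ligands Wnt3, Wnt6, Wnt9b and Wnt11, the Frizzled receptors Fzd5, Fzd6 and Fzd7, and the co-receptors Lrp5 and Lrp6. They were taken by gene name from the gene probes of the array, which gave 9 genes out of 28508 and 13 probes out of 41174. All 9 genes passed the filter on dim probes and were tested.

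Wnt proteins are lipid-modified signals that act over short distances on neighbouring cells. A Wnt binds a Frizzled together with Lrp5 or Lrp6, which stops the destruction of beta-catenin and lets it switch on genes with Tcf factors. In the small intestinal crypt this signal keeps the stem cells at the base dividing, and Paneth cells, which sit between them and secrete antimicrobial peptides, are a known source of Wnt3 for them. Wnt6 and Wnt9b are also known from crypt epithelium, Fzd7 is known as a receptor that crypt stem cells rely on, and Fzd5 is needed for Paneth cells to mature.

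RNA came from epithelial cells sorted by flow cytometry from the intestines of 2 mouse lines, on 7 two-colour arrays. Of these, 6 arrays held GFP-high cells of Dll1-EGFP-ires-CreERT2 mice, in which the promoter of the Notch ligand Dll1 drives GFP, divided by the surface protein CD24 into high, medium and low with 2 arrays each. The remaining array held GFP-high cells of Lgr5-EGFP-ires-CreERT2 mice, which the submitters describe as intestinal stem cells. All groups thus carry a knock-in of GFP and an inducible Cre recombinase, no treatment or age is stated, and each array has Cy3-labelled sample RNA beside Cy5-labelled RNA of whole small intestine as a common reference. A level below is the log2 ratio of sample over reference, and a difference is a subtraction of such levels. The arrays are called CD24 high 1, CD24 medium 2 and so on by group and replicate. Replicates are called biological by the submitters, with no animal named, so p-values from limma cover the spread between these samples and nothing beyond it. With 1 Lgr5 array, the spread among Lgr5 samples was taken to equal that of the Dll1 groups. The sorted groups are bulk samples, in which fewer cells of a type and less RNA per cell cannot be told apart.

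The results turn on the probes of Wnt3, Wnt11 and Fzd7, so parts of these are shown as the array files give them, 5′ to 3′. Each probe is 60 bases long, and positions are those of the files on mm9. Wnt3 has a brighter probe at chr11:103677409-103677468 on the plus strand and a dimmer one at chr11:103679038-103679097, and the last 30 bases of each are printed.
Wnt3, brighter probe: ccatgagaagcaggatctagatccaggcca
Wnt3, dimmer probe: ttatcctcgccatagtcaggtaatagcatc
Wnt11 has a single probe, at chr7:106001985-106002045 on the plus strand, and its last 30 bases hold GTGCC, in capitals, a stretch that comes up again further down.
Wnt11: gcctggggcctgaGTGCCacatgttgcctt
The probes of Fzd7 gave opposite results. The brighter one lies at chr1:59543192-59543251 on the plus strand, with a stop codon in every reading frame, and its last 30 bases are given.
Fzd7, brighter probe: agttctttgaaatgtgctagaagacttaca
The dimmer one lies upstream, at chr1:59541367-59541426, with 2 reading frames free of stop codons. It is printed whole beside the probe of the related receptor Fzd2 at chr11:102467613-102467672, with the longest run of letters they share, 14 bases, in capitals.
Fzd7, dimmer probe: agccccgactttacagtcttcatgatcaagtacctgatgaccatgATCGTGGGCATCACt
Fzd2, brighter probe: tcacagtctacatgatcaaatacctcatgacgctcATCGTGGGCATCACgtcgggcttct

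Paneth markers were highest in CD24 high and stem cell markers in Lgr5. The mean level of the 6 Paneth markers tested was 4.99 and 5.27 on the CD24 high arrays, −0.85 and −0.68 on CD24 medium, −2.69 and −2.67 on CD24 low and −3.60 on Lgr5. The mean of 7 crypt base stem cell markers was 1.84 on the Lgr5 array, 0.33 and 0.24 on CD24 high, and −0.74 to −0.59 on the other 4. Cd24a followed the gates, whereas the Dll1 transcript lay at 0.61 and −0.04 in CD24 high, below the 0.88 of the Lgr5 array, and at 2.52 to 2.81 in CD24 medium and low, although all 6 samples were sorted as Dll1-GFP-high. The CD24 high arrays were the dimmest, with 42.5 and 44.4% of gene spots well above background in the sample channel where the other arrays had 52.8 to 60.5%. Slide 1 held the Lgr5 array, CD24 high 1 and CD24 medium 1, and slide 2 the other 4, so CD24 low was on slide 2 alone.

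Wnt3 was highest in CD24 high, lower in CD24 medium and CD24 low, and lowest in the Lgr5 cells. The brighter probe read 4.80 and 4.68 on the CD24 high arrays. It read 2.19 and 2.62 on CD24 medium and 0.87 and 1.50 on CD24 low. The Lgr5 array read −0.55. No pair of groups overlapped, and the signal stood well above background on all 7 arrays. In sample intensity, the spot's Cy3 signal less its local background, this was 4035 and 3866 in CD24 high against 243 in Lgr5, with the CD24 medium arrays at 1674 and 2082 and the CD24 low arrays at 603 and 721, so the order was there before any ratio was taken.

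Against CD24 high, Wnt3 was lower by 2.33 in CD24 medium on the log2 scale (a difference of −2.33 with SE 0.26, or 5.04-fold, adjusted p = 0.0024) and by more in CD24 low (−3.55, SE 0.26, 11.7-fold, adjusted p = 0.00039). Cells sorted as Lgr5-GFP-high had 39.2-fold less than CD24 high (5.29, SE 0.31, adjusted p = 0.00016) and 7.76-fold less than CD24 medium (2.96, SE 0.31, adjusted p = 0.0031). CD24 low exceeded Lgr5 by 1.74 (SE 0.31, adjusted p = 0.013), a call that was lost with slide as a term (1.58, adjusted p = 0.082). The step from CD24 medium to CD24 low, −1.22 with a 95% interval of −1.83 to −0.60, did not pass (adjusted p = 0.21). Within slide 1 the difference of CD24 medium from CD24 high was −2.61, and within slide 2 it was −2.06.

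The dimmer Wnt3 probe gave the same order of groups with smaller steps. The CD24 high arrays read 2.75 and 2.10, the CD24 medium arrays 0.76 and 1.44, the CD24 low arrays −0.22 and −0.14, and Lgr5 −1.20. Its differences were −1.33 for CD24 medium against high, −2.61 for CD24 low against high and 3.63 for CD24 high against Lgr5. The mean level of the Paneth markers ran in the same order of groups as Wnt3. All 6 markers were lower past the threshold in CD24 medium and in CD24 low against CD24 high, beside 13.3% and 11.2% of all genes. In CD24 low against Lgr5, 2 of the 6 were higher and none lower, beside 11.9% and 9.78% of all genes, and 4 did not pass. Among those that did not pass, Lyz1 and Defa21 read lower in CD24 low (−3.85 and −4.85) than in Lgr5 (−3.53 and −4.63). The part of these markers in the Wnt3 differences was not tested.

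Wnt11, a ligand best known for signalling that does not go through beta-catenin, stood out in CD24 high alone by level. Its probe read 3.38 and 4.96 on the CD24 high arrays. All other arrays lay between −0.75 and −0.44, CD24 medium at −0.44 and −0.46, CD24 low at −0.75 and −0.73 and Lgr5 at −0.58. The difference of CD24 medium from CD24 high was −4.61 (SE 0.46, 24.5-fold lower, adjusted p = 0.0016), and that of CD24 low was −4.90 (SE 0.46, 29.9-fold lower, adjusted p = 0.0011). The Lgr5 array was not well above background for Wnt11, so its level there is only a bound and no fold is given beside the fitted difference of 4.74 for CD24 high less Lgr5 (SE 0.56, adjusted p = 0.0015). CD24 medium, CD24 low and Lgr5 did not differ past the threshold from each other (adjusted p = 0.86 to 0.91).

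The CD24 high arrays agreed on the direction of Wnt11 but not on its size. The sample intensity was 378 on CD24 high 1 and 3365 on CD24 high 2, with 36 to 137 on the other arrays. The reference channel of this probe, where the same RNA was hybridised throughout, read 262 to 563 on slide 1 and 1120 to 1561 on slide 2. Within slide 1 the difference of CD24 medium from CD24 high was −3.81, and within slide 2 it was −5.42. Wnt11 is represented by 1 probe, so no second measurement stands beside these values. The mean of 8 markers of mesenchyme, muscle and endothelium, other sources of Wnt ligands in the gut wall, was −2.50 and −2.18 in CD24 high, −3.19 to −2.70 in CD24 medium and low, and −3.63 in Lgr5. Of these 8 markers, 7 were higher in CD24 high than in Lgr5, beside 21.2% of all genes. In CD24 medium 5 were lower than in CD24 high, beside 13.3% of all genes. On each array 6 to 8 of the markers were well above background, and their part in the Wnt11 result was not tested.

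Wnt6 lay below the whole small intestine reference in every group. By the brighter of its probes, CD24 high lay at −1.22 and −0.70, CD24 medium at −1.95 and −1.49, CD24 low at −1.15 and −1.16 and Lgr5 at −1.93. CD24 low fell inside the range of CD24 high, and Lgr5 inside the range of CD24 medium. The only comparison past the threshold was CD24 high over Lgr5, by 0.97 (SE 0.29, 1.96-fold, adjusted p = 0.042). The sample intensity did not carry that order, with 68 and 98 in CD24 high and 93 in Lgr5, and the highest values, 154 and 171, in CD24 low. The call was lost on the sample channel alone (0.26, adjusted p = 0.46), in the deposited ratios (0.50, adjusted p = 0.39), without the filter on dim probes (adjusted p = 0.055), with an offset of 16 (adjusted p = 0.081) and without CD24 high 2 (0.71, adjusted p = 0.13). CD24 medium against CD24 high passed with slide as a term (−0.76, adjusted p = 0.025) and with the mean of both probes (−0.90, adjusted p = 0.042). The dimmer Wnt6 probe was above background on 4 arrays, none of them from CD24 high.

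Wnt9b had its highest levels in CD24 medium, with wide spread. It read 1.03 and 1.74 there, 0.38 and 1.28 in CD24 low, 0.55 in Lgr5 and 0.27 and 0.11 in CD24 high, where the probe was not well above background on either array. CD24 medium and CD24 low overlapped, and CD24 high lay below every other array. CD24 medium exceeded CD24 high by 1.20, but the difference missed the threshold (95% interval 0.36 to 2.04, adjusted p = 0.056). It passed without background subtraction (1.06, adjusted p = 0.046) and in the deposited ratios (1.73, adjusted p = 0.024). No other comparison of Wnt9b had an adjusted p below 0.22.

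**Figure D1:**
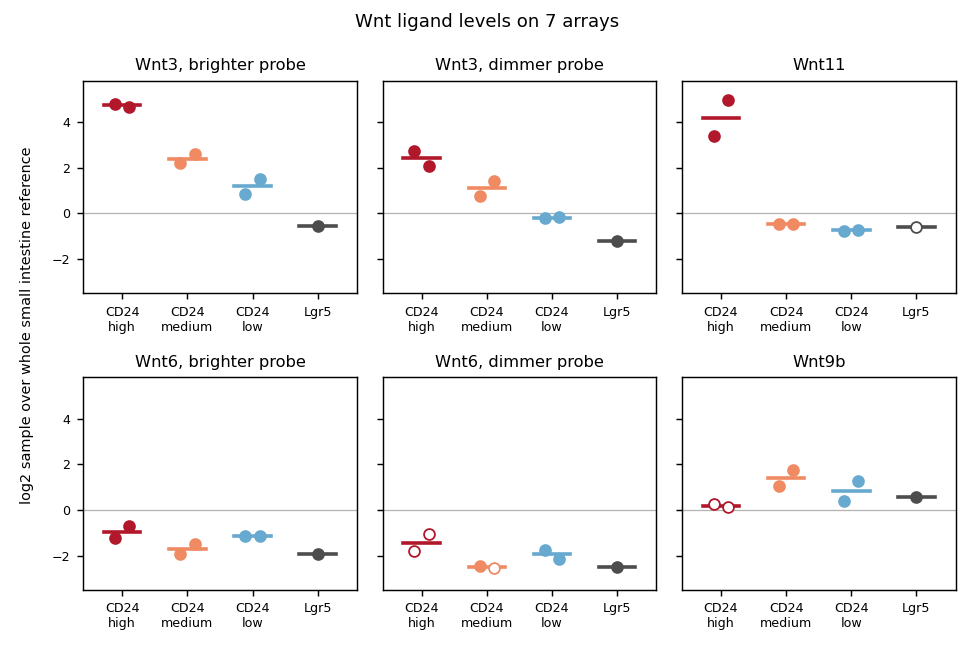
Levels of the 4 Wnt ligands, as log2 of sample over whole small intestine reference (vertical axis), by sorted group (horizontal axis). Each point is an array, open where the sample channel was not well above background, and each line is a group mean; both Wnt3 probes step down from CD24 high to Lgr5, and Wnt11 is high on the CD24 high arrays at 3.38 and 4.96.

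In ratio to the reference, Fzd5 was the flattest of the 9 genes. By its brighter probe, CD24 high lay at −0.46 and −0.13, CD24 medium at −0.05 and −0.17, CD24 low at 0.02 and −0.11 and Lgr5 at −0.43, a span of 0.48. Neighbouring groups overlapped, and none of the 6 comparisons passed. The 95% interval for CD24 low against high ran from −0.18 to 0.67, so differences inside that range are within the error. That comparison passed in the deposited ratios (0.89, adjusted p = 0.035). Sample intensity of the brighter probe was 63 and 69 in CD24 high and 125 to 174 on the other arrays. The dimmer probe differed between groups by at most 0.27.

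In ratio to the reference, Fzd6, a receptor linked mainly to planar cell polarity, declined from Lgr5 and CD24 high towards CD24 low. Lgr5 lay at −0.06, the CD24 high arrays at −0.27 and −0.20, the CD24 medium arrays at −0.71 and −0.45 and the CD24 low arrays at −0.76 and −0.83. No groups overlapped, but neighbouring groups in that order did not differ past the threshold (adjusted p = 0.18 to 0.75). The sample intensity did not carry that order. It was lowest in CD24 high, at 66 and 65, with 114 and 139 in CD24 medium, 92 and 98 in CD24 low and 159 in Lgr5. CD24 low lay below Lgr5 by a difference of −0.73 (SE 0.20, 1.66-fold, adjusted p = 0.044). That call was lost with an offset of 16 (adjusted p = 0.056), with slide as a term (−0.90, adjusted p = 0.092), without CD24 low 1 (adjusted p = 0.071) and without CD24 low 2 (adjusted p = 0.11). CD24 low against CD24 high, −0.56, had an adjusted p of 0.06, which became 0.03 without background subtraction and 0.04 with the filter on all 7 arrays. In the deposited ratios CD24 high lay below Lgr5 (−1.04, adjusted p = 0.035).

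Fzd7 depended on which probe was read. The brighter probe, which entered the fit, was highest in Lgr5 at 1.38. CD24 high followed at −0.34 and −0.25, CD24 low at −0.37 and −0.55 and CD24 medium at −0.55 and −0.62. All 6 Dll1 arrays lay below the Lgr5 array, and in CD24 high the probe was not well above background. Sample intensity was 270 in Lgr5 and 37 to 81 elsewhere. CD24 high lay below Lgr5 by a difference of −1.67 (SE 0.19, adjusted p = 0.0013), with no fold given since CD24 high was not well above background. Lgr5 was 3.90-fold above CD24 medium (−1.96, SE 0.19, adjusted p = 0.0022) and 3.56-fold above CD24 low (−1.83, SE 0.19, adjusted p = 0.0024).

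The dimmer Fzd7 probe, well above background on all 7 arrays, was highest in CD24 high instead. The CD24 high arrays read 3.17 and 1.91, the CD24 medium arrays 0.65 and 0.34, the CD24 low arrays 0.09 and 0.03, and Lgr5 0.39. Sample intensity was 214 and 211 in CD24 high and 50 to 73 on the other arrays. By this probe CD24 high exceeded Lgr5 by 2.15, against a difference of −1.67 by the brighter one, and CD24 medium and CD24 low differed from Lgr5 by 0.11 and −0.33. The probes thus disagree on whether the Lgr5 array or the CD24 high arrays carry most Fzd7 signal, and the comparison of Fzd7 between stem cells and Dll1 cells has no direction common to both. The Fzd2 probe that shares the 14 letters with the dimmer Fzd7 probe was not raised in CD24 high, where it read 0.05 and 0.02.

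**Figure D2:**
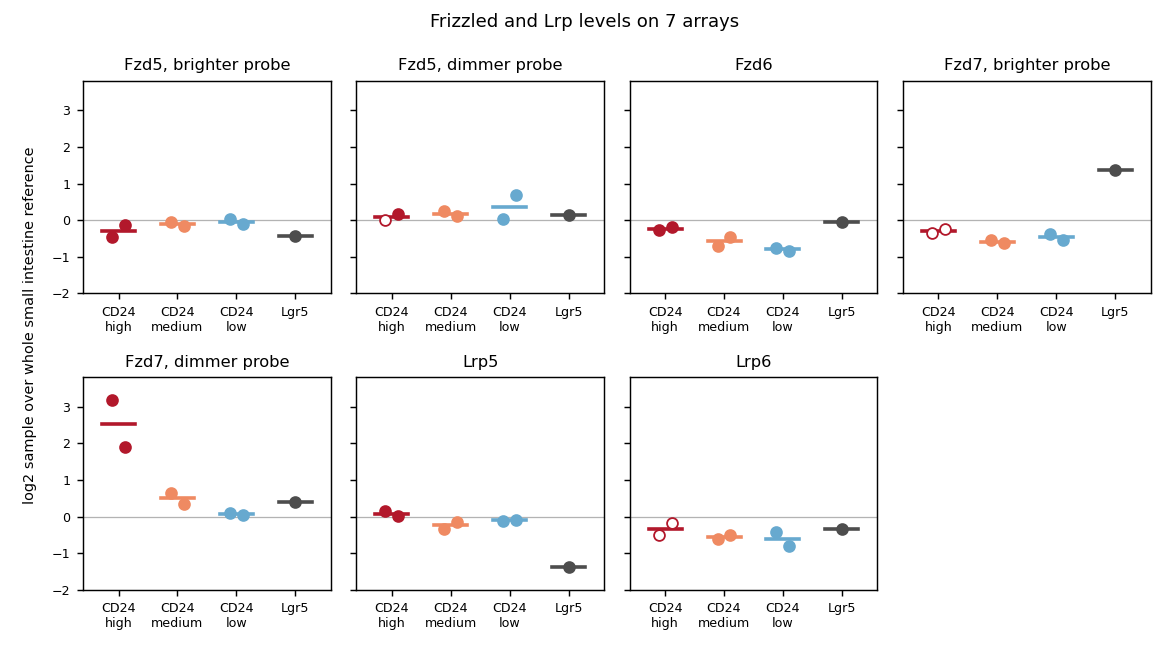
Levels of the Frizzled receptors and Lrp co-receptors, as log2 of sample over whole small intestine reference (vertical axis), by sorted group (horizontal axis); points are arrays, open where not well above background, and lines are group means. The Fzd7 probes are highest in different groups, the brighter at 1.38 in Lgr5 and the dimmer at 3.17 and 1.91 in CD24 high, and Lrp5 is lowest in Lgr5.

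Lrp5, one of the co-receptors that a Wnt and a Frizzled recruit together, was lower in the Lgr5 cells than in any Dll1 array. Lgr5 lay at −1.38, the CD24 high arrays at 0.14 and 0.02, the CD24 low arrays at −0.11 and −0.09 and the CD24 medium arrays at −0.33 and −0.15. The Dll1 groups did not overlap each other, but none of their differences passed the threshold (adjusted p = 0.19 to 0.84). CD24 high exceeded Lgr5 by 1.46 (SE 0.19, 2.74-fold, adjusted p = 0.0021), CD24 medium by 1.13 (SE 0.19, 2.20-fold, adjusted p = 0.011) and CD24 low by 1.28 (SE 0.19, 2.43-fold, adjusted p = 0.0073). In sample intensity CD24 high, at 206 and 196, was close to the 181 of Lgr5, whereas CD24 medium and low read 312 to 373. On the sample channel alone CD24 high still exceeded Lgr5 (0.95, adjusted p = 0.008), but the call for CD24 medium was lost (0.62, adjusted p = 0.059), as it was without CD24 medium 2 (1.04, adjusted p = 0.064).

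Lrp6, the other co-receptor, passed in none of the 6 comparisons by the fitted levels. Lgr5 lay at −0.34, the CD24 medium arrays at −0.60 and −0.51 and the CD24 low arrays at −0.41 and −0.80. CD24 high lay at −0.51 and −0.18, where the probe was not well above background. The CD24 low arrays overlapped both other CD24 levels, Lgr5 lay inside the range of CD24 high, and no comparison had an adjusted p below 0.40. In the deposited ratios Lrp6 passed in 4 comparisons. There CD24 high lay below Lgr5 (−1.97, adjusted p = 0.0048), CD24 medium and CD24 low above CD24 high (1.23 and 0.92, adjusted p = 0.015 and 0.028) and CD24 low below Lgr5 (−1.04, adjusted p = 0.047).

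On the CD24 axis the genes past the threshold in the main fit were ligands, and against Lgr5 they were ligands, receptors and a co-receptor. The receptor Fzd7 also passed on the CD24 axis where its dimmer probe entered. With the filter on all 7 arrays, CD24 medium and low lay below CD24 high (−2.05 and −2.48, adjusted p = 0.0095 and 0.0045). With the mean of its probes the differences were −1.17 and −1.32 (adjusted p = 0.016 and 0.011). Fzd5 and Lrp6 passed on this axis in the deposited ratios, as given above. In the main fit 2 of the 9 genes passed in CD24 medium against CD24 high, where 20.8% of all genes tested passed, 13.3% as lower and 7.51% as higher in CD24 medium. Both, Wnt3 and Wnt11, were lower. The same genes passed as lower in CD24 low against CD24 high, where 18% of all genes passed, 11.2% as lower and 6.84% as higher. These counts are near the background. None of the 9 passed in limma between CD24 low and CD24 medium, where 20 genes did (0.114%, all lower in CD24 low and 0 higher), and 1 of the 9, Wnt3, had an unadjusted p below 0.05, at 0.0025.

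Against Lgr5, 5 of the 9 passed in CD24 high, where 35.8% of all genes passed. Wnt3, Wnt11, Wnt6 and Lrp5 were higher than in Lgr5 (21.2% of all genes) and Fzd7, by its brighter probe, was lower (14.6%). In CD24 medium 3 of the 9 passed, against 18.8% of all genes, with Wnt3 and Lrp5 higher (10.3%) and Fzd7 lower (8.5%). In CD24 low 4 of the 9 passed, against 21.7% of all genes, with Wnt3 and Lrp5 higher (11.9%) and Fzd7 and Fzd6 lower (9.78%). The 3 comparisons with Lgr5 share its 1 array, and both comparisons with CD24 high share its 2 arrays.

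**Figure D3:**
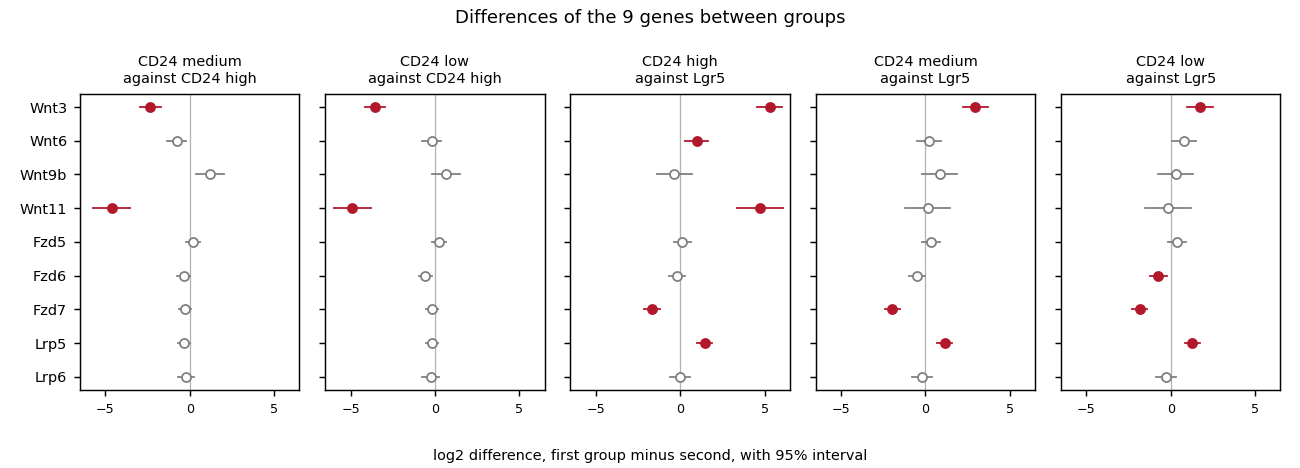
Log2 difference of each of the 9 genes, first group minus second, in 5 comparisons (horizontal axis), with 95% intervals from limma as bars; filled points passed an adjusted p of 0.05. Wnt3 and Wnt11 are the genes past the threshold on the CD24 axis, and Lrp5 and Fzd7 (brighter probe) pass in opposite directions in each comparison with Lgr5.

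Beyond the 4 ligands above, most Wnt genes were dim in these cells, as were Wnt6 and Wnt9b. Of 19 Wnt ligands on the array 11 were tested, and 4 of the 11 were lower in CD24 medium than in CD24 high, with a median difference of −0.40 against 0.01 over all genes, and none was higher. Over all genes 13.3% were lower and 7.51% higher. The same count held in CD24 low, with a median of −0.38 against 0.02, beside 11.2% of all genes lower and 6.84% higher. The other ligands among the 4 were Wnt10a and Wnt5b. Wnt10a read −1.40 and −0.96 in CD24 high, −2.90 in Lgr5 and −2.70 to −2.07 in CD24 medium and low, and exceeded Lgr5 in CD24 high by 1.72 (SE 0.24, adjusted p = 0.0026). Its sample intensity was 68 to 118 on all 7 arrays, with 88 and 118 in CD24 high and 85 to 117 in CD24 medium and low. The raw signal of Wnt10a thus did not order the CD24 levels as the ratio did. Wnt5b, which like Wnt11 is known mainly outside the beta-catenin branch, read 0.65 and 0.67 in CD24 high and −0.27 to −0.09 in CD24 medium and low, a difference of −0.87 for medium against high (SE 0.15, adjusted p = 0.011). That call was lost with the mean of its probes (−0.44, adjusted p = 0.084), on slide 2 alone (−0.83, adjusted p = 0.17), without CD24 medium 1 (−0.81, adjusted p = 0.078) and without CD24 medium 2 (−0.93, adjusted p = 0.063).

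Among 14 tested Frizzleds and co-receptors, Fzd9, a less studied Frizzled, differed most between CD24 high and the other groups. By its single probe, CD24 high lay at 4.65 and 4.29, CD24 medium at 0.29 and 0.23, CD24 low at −1.06 and −1.28 and Lgr5 at −1.41. The groups did not overlap, and sample intensity was 2505 and 2270 in CD24 high against 72 to 280 elsewhere. CD24 high exceeded CD24 medium 18.6-fold (−4.22 for medium less high, SE 0.19, adjusted p = 8.2e-05), CD24 low 50.1-fold (−5.65, SE 0.19, adjusted p = 1.7e-05) and Lgr5 59.0-fold (5.88, SE 0.23, adjusted p = 3.8e-05). Ror2, a receptor for Wnt5a-type signals, read 2.81 and 3.75 in CD24 high and 0.54 to 0.98 on the other arrays by its brighter probe (2.74 over Lgr5, SE 0.37, adjusted p = 0.0024). Sample intensity of that probe was 288 on CD24 high 1 and 1108 on CD24 high 2, with 93 to 242 on the other arrays. Its reference channel read 261 to 397 on slide 1 and 575 to 893 on slide 2. The other Ror2 probe read 0.13 and 0.06 in CD24 high, not above background there, so the rise of Ror2 rests on 1 of 2 probes. Fzd2 was highest in Lgr5, at 1.36, and lower by 1.34 in CD24 low (adjusted p = 0.019, and 0.083 with slide as a term) and by 1.33 in CD24 high (adjusted p = 0.011). Of the 14 genes, 2 were lower and none higher in CD24 medium against high, namely Fzd9 and Ror2, beside 13.3% of all genes lower and 7.51% higher. In CD24 high against Lgr5 3 were higher and 2 lower, beside 21.2% and 14.6% of all genes, so both counts are near the background.

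Genes that Wnt-producing cells need for release were tested as a list of 8, of which 4 were lower in CD24 medium than in CD24 high and none higher, with a median difference of −0.62. Over all genes 13.3% were lower and 7.51% higher, with a median of 0.01. CD24 low had 3 lower and none higher, with a median of −0.59, beside 11.2% lower, 6.84% higher and a median of 0.02 over all genes. Wls, the carrier that takes lipid-modified Wnts to the cell surface, read 0.17 and 0.14 in CD24 high and 0.44 in Lgr5, and −1.06 to −0.94 in CD24 medium and low. CD24 medium was below CD24 high by a difference of −1.16 (SE 0.15, adjusted p = 0.0042) and below Lgr5 by −1.45 (SE 0.18, adjusted p = 0.0048), while CD24 high and Lgr5 did not differ past the threshold (−0.29, adjusted p = 0.27). A further Wls probe, above background on 4 arrays, gave −0.59 for medium less high and −0.69 for medium less Lgr5. The raw sample intensity of Wls did not order the CD24 levels this way, with 468 and 416 in CD24 high and 380 to 517 in CD24 medium and low. Tmed2, a cargo receptor of the early secretory pathway, exceeded Lgr5 in CD24 high by 1.79 (SE 0.28, adjusted p = 0.004), although its raw sample intensity was 9904 and 9498 in CD24 high and 15672 in Lgr5. Vps26a, a retromer subunit that recycles Wls, was lower in CD24 low than in CD24 high by a difference of −1.11 (SE 0.18, adjusted p = 0.0082), and on slide 2 alone the adjusted p was 0.053. Raw sample intensities of Vps26a overlapped, with 179 and 215 in CD24 high and 214 and 154 in CD24 low. Tmed5 was higher in CD24 high than in Lgr5 by 1.24 (adjusted p = 0.025), but not on the sample channel alone (0.85, adjusted p = 0.067), in the deposited ratios (1.17, adjusted p = 0.067) or without CD24 high 1 (1.01, adjusted p = 0.085).

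Another list holds genes that set how many Frizzleds stay on the cell surface. Of 6 tested genes of receptor turnover and the R-spondin branch, 4 were lower in CD24 medium than in CD24 high, with a median difference of −1.07 beside 13.3% of all genes lower and a median of 0.01. The same count were lower in CD24 low, with a median of −1.01 beside 11.2% and 0.02. The other two, Lgr6 and Rspo4, did not pass, and Lgr6 read 0.61 and 0.15 in CD24 high and 0.70 and 0.94 in CD24 medium. Rnf43 and Znrf3 remove Frizzleds from the membrane, and Lgr4 and Lgr5 bind R-spondins, which block that removal. Lgr4 read 0.91 and 0.80 in CD24 high, −0.15 in Lgr5 and −1.32 to −0.94 in CD24 medium and low (−1.96 for medium less high, SE 0.18, adjusted p = 0.0013). A further probe of Lgr4 gave −1.95 and the other 2 gave −0.57 and −0.08. Rnf43 read 0.31 and −0.08 in CD24 high, 0.24 in Lgr5 and −0.99 to −0.92 elsewhere (−1.09 for medium less high, SE 0.18, adjusted p = 0.0097). Its sample intensity before any normalisation was 1401 and 984 in CD24 high and 1181 to 1633 in CD24 medium and low, and 5883 in Lgr5. The raw signal of Rnf43 thus did not order the CD24 levels as the normalised ratio did, whereas that of Lgr4 did, at 773 and 766 in CD24 high and 332 to 540 in CD24 medium and low.

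Lgr5, the gene used to sort the stem cells, read 2.51 in its own group, 1.36 and 1.31 in CD24 high and −1.23 to −0.54 in CD24 medium and low. Znrf3 was lower in CD24 medium than in CD24 high by a difference of −1.05 (SE 0.19, adjusted p = 0.013), a call lost on the sample channel alone (−0.35, adjusted p = 0.083), on slide 2 alone (−1.06, adjusted p = 0.13) and without any one of 3 arrays, CD24 high 2, CD24 medium 1 or CD24 medium 2 (adjusted p = 0.056 to 0.08). The crypt base stem cell markers as a list moved the same way, with 3 of 7 lower in CD24 medium and in CD24 low than in CD24 high, beside 13.3% and 11.2% of all genes. In each Dll1 group 6 of 7 were lower than in Lgr5, Lgr5 itself among the 7. Of all genes 14.6% were lower there in CD24 high, 8.5% in CD24 medium and 9.78% in CD24 low. The part of these markers in the differences of Lgr4, Rnf43 and Wls was not tested.

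**Figure D4:**
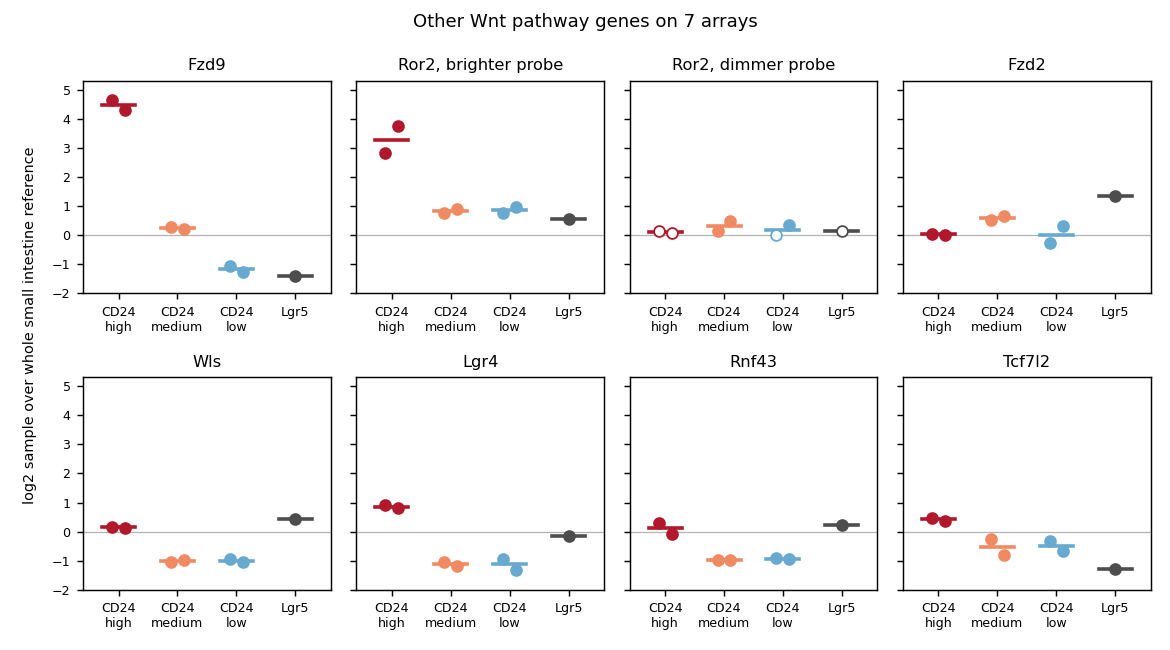
Levels of further Wnt pathway genes, as log2 of sample over whole small intestine reference (vertical axis), by sorted group (horizontal axis); points are arrays, open where not well above background, and lines are group means. Fzd9 lies at 4.65 and 4.29 in CD24 high, the probes of Ror2 differ there, and Wls, Lgr4 and Rnf43 lie lower in CD24 medium and low than in CD24 high.

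Of 12 secreted and membrane inhibitors tested, 2 were higher and 4 lower in CD24 medium than in CD24 high, beside 7.51% and 13.3% of all genes, with a median of −0.59 against 0.01 over all genes. In CD24 high 5 were higher and 1 lower than in Lgr5, beside 21.2% and 14.6% of all genes. Dkk3, a divergent member of the Dickkopf family, read −0.28 and −0.16 in CD24 high and −2.50 to −1.42 elsewhere, where it was not above background. Dkk3, which is in these counts, passed the filter on dim probes only through the CD24 high arrays, so it had to differ, and its levels are a description with no test. Notum, an enzyme that removes the lipid from Wnts, exceeded Lgr5 in CD24 high by 1.61 (SE 0.24, adjusted p = 0.0033), with sample intensities of 54 to 89 on all arrays. Wif1, which binds Wnts outside the cell, was above background on 1 of the CD24 high arrays and not in Lgr5. CD24 high exceeded Lgr5 by 1.72 (adjusted p = 0.0066), with sample intensities of 66 and 47 against 46. That call was lost on the sample channel alone (0.23, adjusted p = 0.47) and in the deposited ratios (1.82, adjusted p = 0.13). Tpbg, a membrane inhibitor that holds back Lrp6, was higher in CD24 medium, at 1.39 and 2.92, than in CD24 high, at −0.12 and −0.10 and below background (a difference of 2.27, adjusted p = 0.025). Its other probes gave differences of 0.90 and 0.64, where the tested probe gave 2.27. The call was lost without CD24 high 1, without CD24 high 2 or without CD24 medium 2 (adjusted p = 0.065 to 0.1).

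Of 23 transducers inside the cell, 2 were higher and 3 lower in CD24 medium than in CD24 high, where 20.8% of all genes passed, with a median of −0.01 against 0.01 over all genes. In CD24 high 5 were higher and none lower than in Lgr5, where 35.8% of all genes passed, 21.2% as higher and 14.6% as lower. The count on the CD24 axis is near the background. The Tcf factors, which carry beta-catenin to DNA, did not share a pattern. Tcf7l2 read 0.46 and 0.38 in CD24 high, −0.82 to −0.27 in CD24 medium and low and −1.30 in Lgr5 (1.72 for CD24 high less Lgr5, SE 0.28, adjusted p = 0.0049), with raw sample intensities of 660 and 643 in CD24 high and 652 in Lgr5. Its other probes, above background on 7 and 6 arrays, gave 0.52 and 0.34 for CD24 high less Lgr5, and for CD24 medium less high they gave 0.06 and −0.28 where the tested probe gave −0.97. Tcf7 was highest in Lgr5 at 0.27, with −0.22 and −0.14 in CD24 high, and it was not above background in CD24 medium and low. It passed the filter on dim probes only through the Lgr5 and CD24 high arrays. Its differences from Lgr5, −1.78 in CD24 medium and −1.55 in CD24 low, are thus descriptions with no test. A further Tcf7 probe, above background on 4 arrays, gave −0.35 and −0.16 for CD24 medium and CD24 low less Lgr5 and read higher in CD24 high than in Lgr5, by 0.34. Tcf7l1 was not above background in Lgr5, which CD24 high, CD24 medium and CD24 low exceeded by 1.43, 1.44 and 1.59 (adjusted p = 0.018, 0.03 and 0.021). Raw sample intensity was 50 and 56 in CD24 high, 137 to 197 in CD24 medium and low, and 40 in Lgr5. The CD24 low call was lost with slide as a term (adjusted p = 0.1) and without CD24 low 2. The other Tcf7l1 probe, above background on 1 array, gave 0.36, 0.21 and 0.25 for the same differences. Lef1 read −0.60 and −0.31 in CD24 high and −2.21 and −2.16 in CD24 medium, with sample intensities of 33 to 71 throughout. It was above background on CD24 high 2 and Lgr5 alone and passed the filter only through them. Its levels are thus a description with no test. For CD24 medium less high its other probes gave −0.85 and −0.22 where the main one gave −1.73. Tcf7 and Lef1 are both in the count of genes lower in CD24 medium than in CD24 high.

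Probes that hold certain short stretches of letters read much higher in CD24 high more often than all probes did. Of 24287 probes, 238 hold GTGCCC on the strand as given, and 35.3% of these read over 2 log2 units higher in CD24 high than in the mean of CD24 medium and low, against 2.12% of all probes. The shorter GTGCC is in 1023 probes, 11.8% of them that much higher, and the 238 with GTGCCC are among these. The share among probes with GTGCC but without GTGCCC was not worked out. GCCGCC is in 98 probes, 27.6% of them that much higher. These letters were chosen after the values were seen. None of the 13 probes of the 9 genes holds GTGCCC or GCCGCC, and the Wnt11 probe holds the shorter GTGCC alone. The brighter Ror2 probe, at chr13:53205969-53206028 on the minus strand, holds GTGCCC, in capitals in its last 30 bases.
Ror2, brighter probe: gacccttgGTGCCCcccgcacagctgtaca
The part of these letters in the levels of Wnt11 and Ror2 was not tested. The probes of Wnt3, Fzd7 and Fzd9 hold none of them.

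Some genes followed the 9 closely over the 7 arrays, which share groups, slides and one reference, so these correlations are descriptions without a test. For Wnt3 the closest of 5612 genes were Reg4 and Pnrc1 (Pearson r = 0.993 each), Rnf215 (0.992), Pla2g2f and Il11ra1 (0.991 each). The group means of Reg4 were 5.52 for CD24 high, 1.78 for CD24 medium, −0.11 for CD24 low and −1.97 for Lgr5. Wnt11 was tracked most closely by Tmem210 (0.999), Nlgn3 (0.998) and Snx32 (0.997), each highest in CD24 high. The brighter Fzd7 probe was followed by Cabcoco1 (0.995), Afap1l1 (0.993) and Fuom (0.992), each highest in Lgr5. Lrp5 was followed by Osbpl2 (0.996), Sbno2 (0.995) and Slc35e4 (0.993), each lowest in Lgr5. Wnt6 was closest to Snx9 (0.990), Gzmb and Slc5a4b (0.985 each), and Wnt9b to Parp1 (0.988), Smarcd2 (0.986) and Tekt4 (0.984). Fzd5, Fzd6 and Lrp6 spanned less than 1 on the log2 scale and were not matched.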

How the data were processed

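Per the file headers, Agilent Feature Extraction 10.5.1.1 made the deposited files, which give each spot's intensity and its background in both dyes, and a log10 ratio of reference over sample. The same log10 ratios, with the sign turned, make up the deposited series matrix (largest difference 5e-06). RNA was isolated with Trizol and 100 ng amplified and labelled, per the labels' protocols. Dyes were never exchanged, so a dye effect is shared by all groups.

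Mean signals were background corrected (normexp, offset 50) and normalised within arrays by loess (span 0.3) with R 4.3.3, limma 3.58.1 and data.table (version 1.17.8), with control spots at weight 0 and sample-channel outlier spots left out. This gave the log2 levels computed from the deposited intensities. Probes well above background in the sample channel on at least 2 of 7 arrays were kept. The brightest probe of a gene was tested, which left 17545 genes, and 17486 in comparisons with Lgr5. A model with 4 group means was fitted to all 7 arrays (3 residual and 3.55 prior degrees of freedom), and the Benjamini-Hochberg method adjusted its p-values over all genes tested, with a threshold of 0.05. A "fold" is 2 to the power of the difference, and none is given where a compared group was not well above background on any array. The procedure was tested on simulated data. Plots used Python 3.11.15 and matplotlib 3.10.9.

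Of all gene probes, 26918 were named by RefSeq accession (GRCm38.p6 annotation, for names only) and 14256 kept the array's name. Exon and UTR positions were not used here. From each pathway list up to 4 genes with the largest difference past the threshold were named, and for each of the 9 genes that spans at least 1 on the log2 scale the 3 most correlated genes (5 for Wnt3), passing over clones, predicted genes and accessions. Porcn and other list members stand in the counts alone. The genes, lists and tests were chosen with earlier results of these data known. Alternatives were an offset of 16, no background subtraction, the series matrix, the sample channel alone with quantile scaling, no filter on dim probes, one that asks for all 7 arrays, averaging a gene's probes, slide as a term, slide as a random block, each slide alone, the replicate number as a block, and leaving out each array.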

Additional observations from a re-analysis of the deposited data

How the results depend on the processing

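The number of the 9 genes past the threshold kept within 1.5 times its main value in most settings. In CD24 medium against CD24 high it was 2, and 4 with the series matrix and 4 with the mean of all probes. In CD24 low against CD24 high it rose from 2 to 4 with the series matrix, which also moved the median of all genes to 0.21 and 0.24 in these comparisons. In CD24 low against Lgr5 it fell from 4 to 2 with slide as a term. No pairing of same-numbered arrays is stated, and the main fit has no term for it. Their deviations correlated at 0.30 for CD24 high and medium, −0.01 for high and low and 0.48 for medium and low. These values do not settle whether the arrays are paired. With the replicate number as a block 4 of the 9 passed in CD24 medium against CD24 high, Wnt6 (−0.76, adjusted p = 0.041) and Wnt9b (1.20, adjusted p = 0.037) in addition. Of all 17545 genes 4011 passed there, against 3655 in the main fit. Fzd7 reversed by construction where its other probe entered, to 2.15 in CD24 high against Lgr5 and 0.11 in CD24 medium against Lgr5 with the filter on all 7 arrays, and to 0.24 in CD24 high against Lgr5 with the mean of all probes. Leaving out 1 array at a time left 2 to 2 genes past the threshold in CD24 medium and in CD24 low against CD24 high, 0 to 0 between CD24 low and medium, 4 to 5 in CD24 high against Lgr5, 2 to 3 in CD24 medium against Lgr5 and 3 to 3 in CD24 low against Lgr5. With slide as a random block the estimated correlation was 0.03 and none of 40 results changed side. The Lgr5 array has no replicate, CD24 low was on slide 2 alone, and dim probes hold their ratio near a floor set by the offset, which limits Wnt9b, Lrp6 and the brighter Fzd7 probe in CD24 high, where they were not well above background.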
